A study of Mus musculus with 3 samples.

Results

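The Wnt pathway genes described here are those of the deposited array table whose symbols name a Wnt ligand, a Frizzled receptor, an Sfrp or Dkk inhibitor, a Dishevelled or an Axin, together with *Lrp5*, *Lrp6*, *Ctnnb1*, *Apc*, *Gsk3b*, *Lef1*, *Wif1*, and *Porcn*. They were chosen by symbol alone and number 50 of the 30854 symbols in the table. RNA came from wild-type Cd-1 embryos at the early headfold (EHF) stage, of which the embryonic region was taken, separated from the extraembryonic region at the boundary between them. A single group of 3 Illumina Mouse-6 arrays, replicates 1 to 3, was measured, so each gene can be compared with the background of its own array and between replicates, but not with another genotype or stage. The paper's methods name ICR as the wild-type stock where the sample labels name Cd-1, and neither settles whether an array holds a single embryo or a pool. Technical and biological spread between the arrays cannot be told apart in this design.

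Wnt proteins are secreted, lipid-modified ligands that bind Frizzled receptors and the co-receptors Lrp5 and Lrp6. Binding stops a complex of Axin, Apc, and Gsk3 from marking beta-catenin (*Ctnnb1*) for breakdown, and beta-catenin then acts in the nucleus with Tcf and Lef factors. In the gastrulating mouse embryo Wnt signals from the posterior are needed for the primitive streak and its mesoderm, while secreted inhibitors act in the anterior. Other Wnt ligands act without beta-catenin, on cell polarity and movement.

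With 1 probe (25 of the 50 genes), the detection p is the share of negative-control probes at least as bright. With several probes (23 genes) it is a single combined value, as low as 5.14e-06 for *Porcn* on replicate 1. The number of probes was not settled for 2 genes. A shared threshold is therefore not the same criterion for both kinds of gene. A gene was called expressed above background when its value lay below 0.01 on each of the 3 arrays. By this rule 18 of the 50 Wnt pathway genes (36%) were called, against 20.6% of all symbols. Called genes were 5 of 20 ligand genes (*Porcn* counted with them), 6 of 12 receptor genes, 2 of 9 secreted inhibitors, and 5 of 9 intracellular components. A further 9 met the threshold on 1 or 2 arrays, and 23 on none. The deposited log2 signal, averaged over the arrays, had a median of 6.64 over the 50 genes, close to the background level (6.64, SD 0.05, n = 3). That level is the lowest signal on an array with a detection p above 0 and under 0.01 among symbols with 1 probe, and it was 6.69 for replicate 1, 6.66 for replicate 2, and 6.58 for replicate 3.

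The count was also taken by other rules, each with the share of all symbols it called. A detection p under 0.05 called 19 of the 50 (24.7% of all symbols), and one under 0.001 called 11 (17%). At least 2 arrays with a detection p under 0.01 gave 21 (25.6%) and at least 1 array 27 (33%). The cut-off of the study's legend, applied to quantile normalized signals, gave 18 (24.6%). Single arrays detected 23 of the 50 genes on replicate 1 (29.2%), 24 on replicate 2 (26.6%), and 19 on replicate 3 (23.3%). Pairs of arrays called 18 without replicate 1 (21.1%), 18 without replicate 2 (21.6%), and 21 without replicate 3 (24.1%), the last adding *Wnt5a*, *Dkk4*, and *Sfrp2*.

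**Figure D1:**
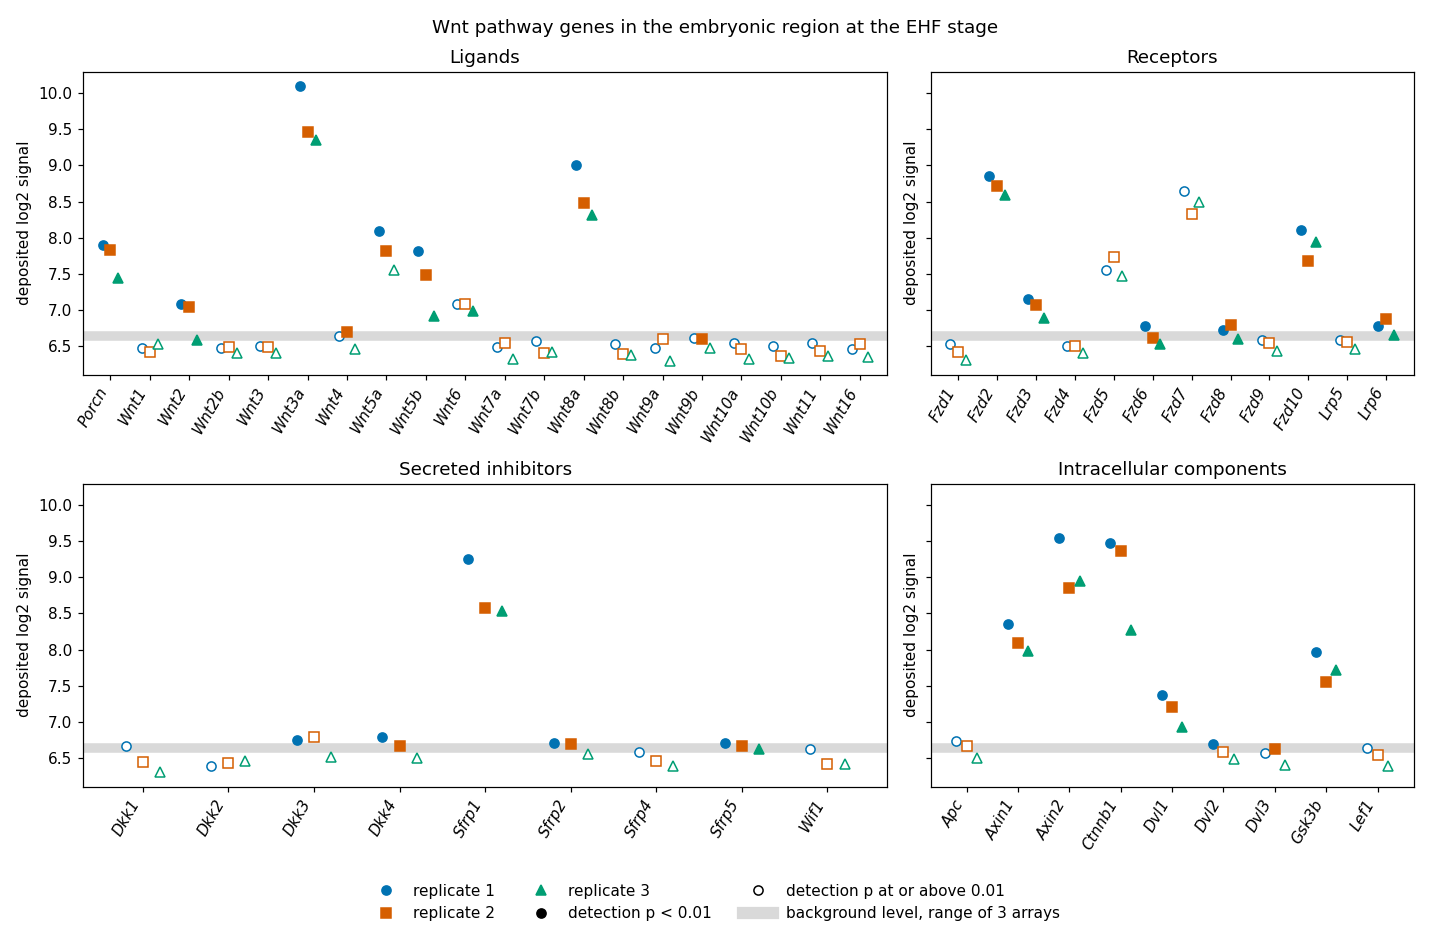
Deposited log2 signal (y axis) of each of the 50 genes (x axis) on the 3 arrays, by role, with filled points where the detection p was under 0.01 and the grey band spanning the background levels of the arrays. Most Wnt ligands and Dkk genes lie in or under the band, whereas *Wnt3a*, *Wnt8a*, *Fzd2*, *Sfrp1*, *Axin2*, and *Ctnnb1* lie well above it on each array.

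The 19 Wnt ligand genes included 4 that were called (21.1%, near the 20.6% of all symbols), *Wnt2*, *Wnt3a*, *Wnt5b*, and *Wnt8a*. *Wnt3a*, which is needed for paraxial mesoderm and tail outgrowth, gave a log2 signal of 10.11 on replicate 1, 9.46 on replicate 2, and 9.35 on replicate 3, and values are given in that order from here on. *Wnt8a*, a ligand of the primitive streak region, had 9.01, 8.48, and 8.32. Every array was thus far above its background level for both genes, and replicate 1 was the highest. For a level with an SD, signals were background-corrected and quantile normalized, and the background level of the same array was subtracted. On that log2 scale *Wnt3a* was 4.65 above background (SD 0.32, n = 3) and *Wnt8a* 3.45 (SD 0.28). By limma's one-sided test the highest adjusted p of 11 alternative settings was 0.000185 for *Wnt3a* and 0.000431 for *Wnt8a*. The size of a level depends on the processing, and over those settings it lay between 2.99 and 4.84 for *Wnt3a*.

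*Wnt5b*, a ligand of the branch that acts without beta-catenin, had log2 signals of 7.81, 7.48, and 6.92, all above background but spread over the arrays. Its level was 1.70 above background (SD 0.60, n = 3), and between 0.73 and 2.15 over the alternatives. *Wnt2* had signals of 7.08, 7.04, and 6.59, so that replicate 3 lay at its background level of 6.58. The detection p of *Wnt2* on that array was 0.00855, and its level of 0.66 above background (SD 0.55) kept an adjusted p under the threshold in 8 of 11 alternatives. Over these it ranged from 0.23 to 1.08, the highest without replicate 3. *Porcn*, the enzyme that adds the lipid without which Wnt proteins are not secreted, had signals of 7.90, 7.83, and 7.44 and a level of 2.27 (SD 0.18).

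The other 15 ligand genes were not called. *Wnt5a* and *Wnt6* met the threshold on 2 arrays and 1 array and are described with the genes of several probes. *Wnt4* and *Wnt9b* met it on replicate 2 alone, with detection p-values of 0.0566, 0.00148, and 0.0473 for *Wnt4* and 0.0727, 0.00892, and 0.0493 for *Wnt9b*. The remaining 11, *Wnt1*, *Wnt2b*, *Wnt3*, *Wnt7a*, *Wnt7b*, *Wnt8b*, *Wnt9a*, *Wnt10a*, *Wnt10b*, *Wnt11*, and *Wnt16*, met it on no array, and their mean log2 signals lay between 6.40 and 6.47. *Wnt3*, which is required for the primitive streak to form, was among them, with signals of 6.50, 6.49, and 6.41 from 28, 28, and 22 beads. All 3 values lay under the background level of their array. *Wnt3* was measured by 1 probe, and whether a transcript confined to few cells is detectable in such RNA was not tested.

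Of the 10 Frizzled genes, 5 were called (50%, against 20.6% of all symbols), *Fzd2*, *Fzd3*, *Fzd6*, *Fzd8*, and *Fzd10*. *Fzd2* had log2 signals of 8.85, 8.71, and 8.60 and a level of 3.60 above background (SD 0.04, n = 3). Before the background level of each array was subtracted, its normalized level had an SD of 0.23. *Fzd10* had 8.11, 7.67, and 7.93, with replicate 2 the lowest, and a level of 2.53 (SD 0.34). *Fzd3* had 7.14, 7.06, and 6.88 and a level of 1.02 (SD 0.07). For these 3 receptors the difference from background exceeded the spread between arrays, and of their adjusted p-values from limma over 11 alternatives the highest was 0.00529, for *Fzd10*.

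*Fzd6*, *Fzd8*, and the co-receptor gene *Lrp6* were called close to background. *Fzd8* had log2 signals of 6.72, 6.78, and 6.60 and *Fzd6* 6.78, 6.62, and 6.53, so that *Fzd6* was under the background level on replicates 2 and 3. Levels relative to background were 0.18 (SD 0.18, n = 3) for *Fzd8* and -0.05 (SD 0.24) for *Fzd6*, with adjusted p-values from limma of 0.419 and 1. Without replicate 2 the level of *Fzd8* was 0.073, and without replicate 3 it was 0.27. The number of probes of *Fzd6* could not be settled, and its detection p can be a combined value. *Lrp6* had signals of 6.77, 6.88, and 6.65 and a level of 0.38 (SD 0.23), with an adjusted p from limma of 0.022 that rose as high as 0.518, at a level of 0.24, when replicate 2 was left out. *Fzd1*, *Fzd4*, *Fzd9*, and *Lrp5* met the detection threshold on no array, with mean signals between 6.41 and 6.53.

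*Fzd5* and *Fzd7* had bright signals and no detection call on any array. *Fzd7* had log2 signals of 8.64, 8.33, and 8.49, far above the background level of each array, with detection p-values of 0.336, 0.322, and 0.147. *Fzd5* had signals of 7.55, 7.74, and 7.47, with 0.554, 0.219, and 0.43. Both receptors are measured by at least 2 probes, whose signals are deposited as a mean and whose detection p is a single combined value. A mean that far above background needs at least 1 probe above it, while the probes could not be seen singly. Relative to background the levels were 3.32 (SD 0.23, n = 3) for *Fzd7* and 2.05 (SD 0.23) for *Fzd5*, and over 10 alternatives no adjusted p from limma exceeded 0.000836 and 0.00493.

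*Wnt5a* and *Wnt6*, each with at least 3 probes, behaved alike in this respect. *Wnt5a*, a ligand of the branch without beta-catenin that the elongating posterior body needs, had log2 signals of 8.09, 7.81, and 7.55, with detection p-values of 2.03e-10, 0.00538, and 0.0797. *Wnt6* had 7.08, 7.08, and 6.99, with 0.0276, 0.0556, and 3.51e-07, so the threshold was met on replicate 3. Its deposited signal was lowest there, but relative to the background level of each array it was similar (0.39, 0.42, and 0.41). After normalization its level above background was highest on replicate 3 (0.93, 1.11, and 1.21). Levels above background were 2.40 (SD 0.19, n = 3) for *Wnt5a* and 1.08 (SD 0.14) for *Wnt6*. The deposited signal was above the background level on all 3 arrays for 21 of the 50 genes, against 26.3% of all symbols, and these 4 were the genes among the 21 without a call. With the background level of the rule first tried for finding symbols of 1 probe, which was lower on every array, the count was 27, against 31.2% of all symbols. Over all symbols with several probes 50.8% of those with such signals had no call. The limma test called 19 of the 50 genes, against 25.7% of all symbols, adding these 4 and leaving out *Fzd6*, *Fzd8*, and *Sfrp5*.

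**Figure D2:**
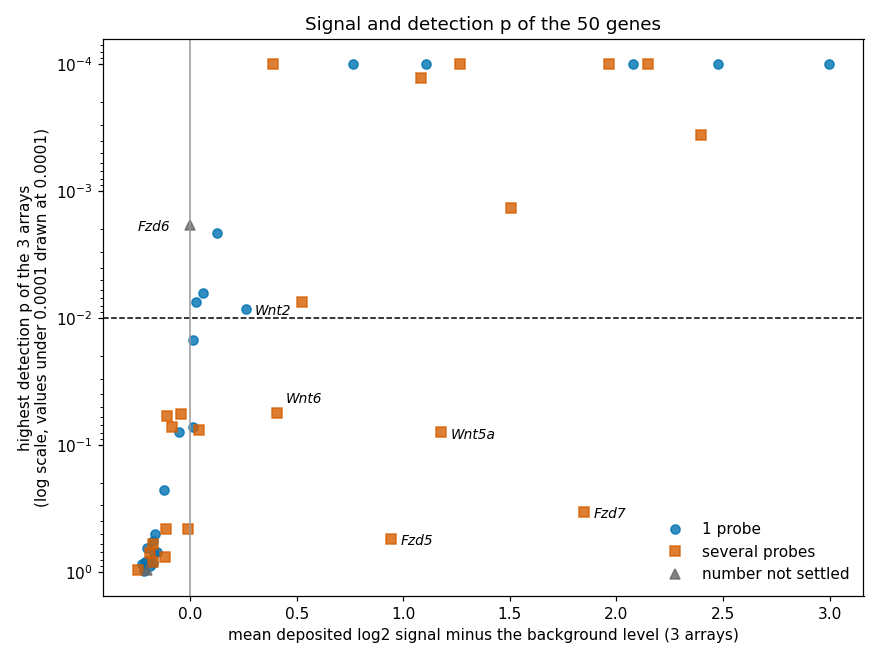
Mean deposited log2 signal minus the background level (x axis) and the highest detection p of the 3 arrays (y axis, log scale, reversed) for the 50 genes, coloured by the number of probes, with a dashed line at 0.01. *Fzd7*, *Fzd5*, *Wnt5a*, and *Wnt6*, all of several probes, lie to the right of background and under the line.

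**Figure D3:**
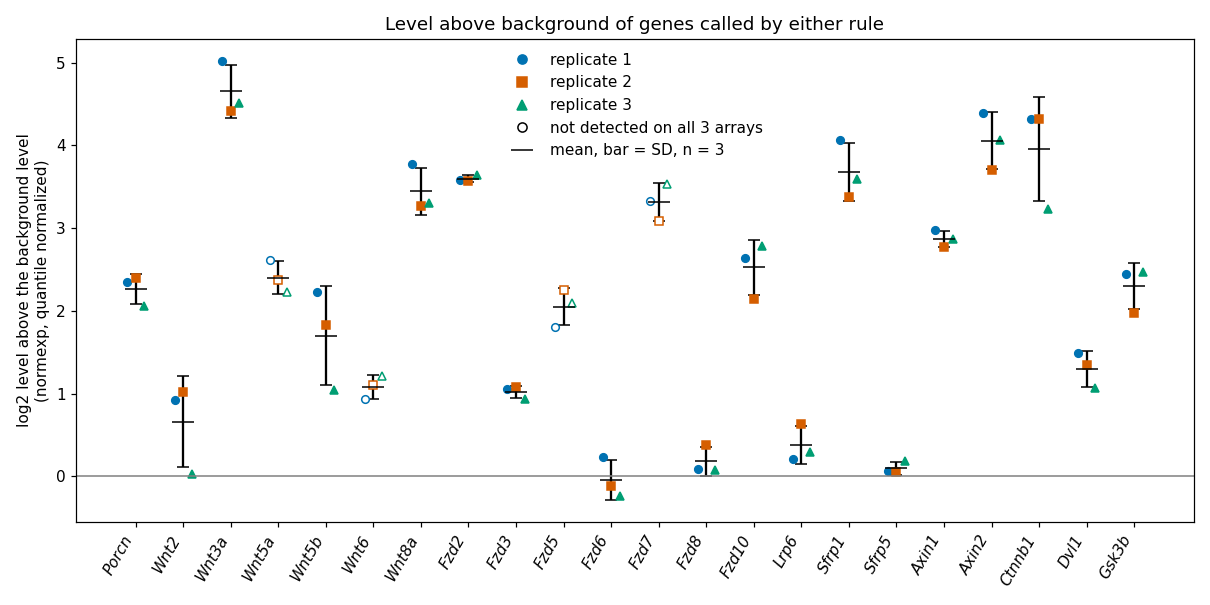
Log2 level above the background level after normexp and quantile normalization (y axis) for the 22 genes called by detection or by limma (x axis), with the 3 arrays as points and the mean with its SD as bars. Points of *Fzd6*, *Fzd8*, *Sfrp5*, and replicate 3 of *Wnt2* lie near 0, and levels of different genes are not comparable because probes hybridize differently.

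Secreted inhibitors were called for 2 of 9 genes (22.2%, near the 20.6% of all symbols). These were *Sfrp1* and *Sfrp5*, whose products bind Wnt ligands outside the cell. *Sfrp1* had log2 signals of 9.25, 8.57, and 8.54, far above background on each array, and a level of 3.68 (SD 0.35, n = 3). *Sfrp5*, known from the anterior visceral endoderm and foregut endoderm, had 6.71, 6.67, and 6.63, just above the background level of each array. Its level was 0.10 (SD 0.08), with an adjusted p from limma of 0.901. *Sfrp2* had 6.71, 6.69, and 6.56 and missed the call on replicate 3, with detection p-values of 0.00748, 0.00427, and 0.015.

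None of the 4 Dkk genes was called, nor was *Wif1*, by the rule that called 20.6% of all symbols. Dkk1 blocks Lrp5 and Lrp6 and is required for the head. *Dkk1* had log2 signals of 6.66, 6.44, and 6.31 from 35, 24, and 29 beads, with detection p-values of 0.0267, 0.568, and 0.856. *Dkk4* had 6.79, 6.67, and 6.50 and met the threshold on replicates 1 and 2, with detection p-values of 0.00214, 0.00641, and 0.0726. *Dkk3*, with at least 3 probes, met it on replicate 1, with 0.000388, 0.0765, and 0.039. Leaving out replicate 3, the array with the fewest detected symbols, gave 4 of 9 inhibitors instead of 2, with *Sfrp2* and *Dkk4* added. That pair of arrays called 24.1% of all symbols. *Dkk2*, *Sfrp4*, and *Wif1* had mean signals between 6.42 and 6.49.

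Among intracellular components, *Axin1*, *Axin2*, *Ctnnb1*, *Dvl1*, and *Gsk3b* were called. *Axin2*, both a scaffold of the destruction complex and a widely used target gene of the pathway, had log2 signals of 9.55, 8.85, and 8.95 and a level of 4.05 above background (SD 0.34, n = 3). *Axin1*, the other Axin scaffold, had 8.36, 8.09, and 7.98 and a level of 2.87 (SD 0.10). *Ctnnb1*, encoding beta-catenin, had 9.48, 9.37, and 8.27, with replicate 3 more than 1 unit under the others, and a level of 3.96 (SD 0.62). *Gsk3b*, the kinase that marks beta-catenin, had 7.97, 7.56, and 7.71 and a level of 2.30 (SD 0.28). *Dvl1*, which relays the signal from Frizzled, had 7.37, 7.20, and 6.93 and a level of 1.30 (SD 0.22).

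*Apc* and *Lef1*, each with at least 4 probes, met the detection threshold on no array. *Lef1*, a nuclear partner of beta-catenin, had log2 signals of 6.64, 6.54, and 6.39, all under the background level of the array. *Apc* had 6.73, 6.66, and 6.50, at or near it. *Dvl2* met the threshold on replicate 1, with detection p-values of 0.00962, 0.0513, and 0.0791, and *Dvl3* on replicate 2, with 0.0868, 0.000781, and 0.457. With at least 4 probes, as for *Apc* and *Lef1*, a transcript seen by a single one could be missed in both the mean and the combined p.

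The other genes of the pathway were taken from lists covering secretion, receptors, inhibitors, intracellular components, nuclear factors, and target genes. Of 90 measured, 39 were called (43.3%), 19 met the threshold on 1 or 2 arrays, and 32 on none, against 20.6% of all symbols called. Over the other rules applied to all 90, the lowest count was 34, with a detection p under 0.001 (17% of all symbols). The highest was 58, with detection on at least 1 array (33%), and limma called 48 (25.7%). As for *Fzd5* and *Fzd7*, 6 genes of several probes were called by limma and detected on no array, *Gpc3*, *Celsr3*, *Ep300*, *Bcl9*, *Tle1*, and *Ccnd2*. Target genes included 10 of 14 that were called, *T*, *Sp5*, *Sp8*, *Cdx1*, *Tbx6*, *Ccnd1*, *Mesp1*, *Isl1*, *Nkx1-2*, and *Dll1*. *T*, encoding brachyury, had log2 signals of 10.78, 10.17, and 9.56, and *Sp5*, a factor of the primitive streak, 10.43, 9.89, and 8.64. *Ccnd1*, a cyclin, had 10.57, 10.49, and 10.11.

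Among nuclear factors, 5 of 15 were called (33.3%, against 20.6% of all symbols), *Tcf7*, *Pygo2*, *Tle4*, *Ctbp2*, and *Smarca4*. *Pygo2*, a co-activator, had a level of 3.34 above background (SD 0.37, n = 3), and the co-repressor *Tle4* 2.88 (SD 0.36). *Ep300*, a co-activator with at least 3 probes and no call, had 2.83 (SD 0.11). *Tcf7* was called close to background, with a level of 0.29 (SD 0.36) and an adjusted p from limma of 0.0938. Other receptor and planar polarity genes were called in 6 of 18 cases (33.3%, against the same 20.6%), *Ryk*, *Ror2*, *Prickle1*, *Vangl2*, *Lrp4*, and *Ptk7*. *Gpc3*, a glypican of the cell surface with at least 3 probes, had log2 signals of 10.69, 10.72, and 10.03 without a call on any array and a level of 5.54 (SD 0.28, n = 3). Levels were 4.69 (SD 0.24) for *Ryk* and 3.38 (SD 0.11) for *Ror2*, both receptors for Wnt ligands outside the Frizzled family.

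Of 9 other genes listed as secreted or surface inhibitors, *Cer1* and *Apcdd1* were called (22.2%, near the 20.6% of all symbols). Log2 signals were 6.95, 6.68, and 6.56 for *Cer1* and 7.32, 7.35, and 7.12 for *Apcdd1*. Whether *Cer1* acts on Wnt ligands was not tested. *Cer1* was under the background level on replicate 3, and its level of 0.22 (SD 0.38, n = 3) had an adjusted p from limma of 0.259. *Notum*, whose product removes the lipid of Wnt proteins, met the threshold on replicate 2 alone and had a level of 0.45 (SD 0.27). *Rspo3*, whose product strengthens Wnt signals at the receptor, was the called gene of 5 for secretion and agonists (20%, near the 20.6%). It was at 2.43 above background (SD 0.20, n = 3), and *Rspo1* and *Ndp*, next in level, were at -0.28 (SD 0.06) and -0.53 (SD 0.18). Other intracellular components were called in 15 of 29 cases (51.7%, against 20.6% of all symbols). They were *Csnk1d*, *Csnk1e*, *Csnk2a1*, *Skp1a*, *Cul1*, *Tnks2*, *Frat2*, *Nkd2*, *Ctnnbip1*, *Cxxc4*, *Ppp2ca*, *Ppp2r1a*, *Ppp2r5d*, *Senp2*, and *Siah1a*. Levels were 7.32 (SD 0.13) for the phosphatase subunit gene *Ppp2ca*, 5.08 (SD 0.31) for *Ppp2r1a*, another subunit, and 4.39 (SD 0.36) for the SUMO protease gene *Senp2*.

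**Figure D4:**
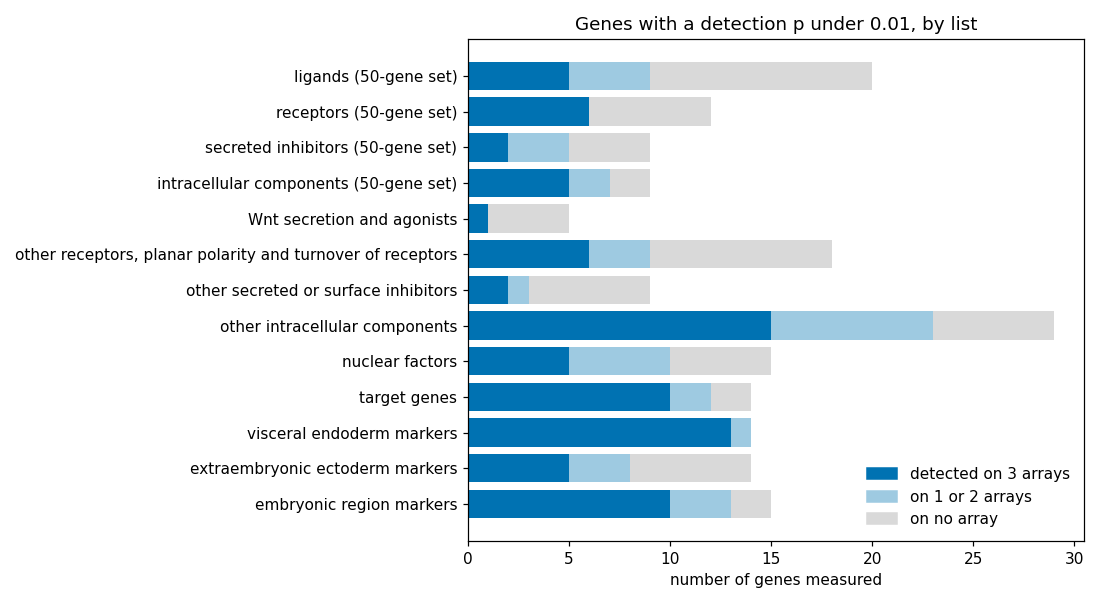
Number of genes measured in each list (x axis), split by whether the detection p was under 0.01 on all 3 arrays, on 1 or 2, or on none. Target genes (10 of 14) and visceral endoderm markers (13 of 14) were mostly called, against 20.6% of all symbols. Ligand genes, *Porcn* included (5 of 20, 25%), and secreted inhibitor genes (2 of 9, 22.2%) were called in shares close to that of all symbols.

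The labelled tissue was checked with marker lists. Embryonic region markers were called for 10 of 15 genes, among them *Otx2*, *Pou5f1*, and *T*, against 20.6% of all symbols. This list shares *T*, *Tbx6*, and *Mesp1*, all called, with the list of target genes. Visceral endoderm markers were called for 13 of 14 genes and extraembryonic ectoderm markers for 5 of 14. *Apoc2* was among the called visceral endoderm markers. The paper found its in situ signal at head-fold stages only in the extraembryonic visceral endoderm. Called extraembryonic ectoderm markers were *Cdx2* (log2 signals of 9.88, 9.60, and 9.12), *Rhox5* (9.81, 9.92, and 8.43), *Ets2* (9.04, 8.83, and 8.12), *Bmp4*, and *Tfap2c*. Of the same list, *Elf5* and *Eomes* were detected on no array. Whether the called genes of a list came from the tissue it names was not tested. The summed normalized signal of the visceral endoderm list was 11719, 14349, and 8972 on replicates 1, 2, and 3, that of the embryonic region list 3351, 2810, and 3083, and that of the extraembryonic ectoderm list 2541, 2736, and 2106. Whether any Wnt pathway signal came from visceral endoderm or extraembryonic ectoderm was not tested, and in such a mixed tissue fewer cells of a type and less RNA per cell cannot be told apart.

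Between the arrays, called Wnt pathway genes differed in which array was the lowest. After normalization, *Wnt3a*, *Wnt8a*, *Fzd6*, *Fzd10*, *Sfrp1*, *Axin1*, *Axin2*, and *Gsk3b* were lowest on replicate 2, 8 of the 18 called genes (44.4%), against 33.2% of all 6357 called symbols. With median centring of the deposited signals instead, 5 of the 18 were lowest there, *Fzd6*, *Fzd10*, *Sfrp1*, *Axin2*, and *Gsk3b* (27.8%), against 14.4%, while *Wnt3a*, *Wnt8a*, and *Axin1* were lowest on replicate 3. On replicate 2 the called visceral endoderm markers were at their highest for 10 of 13 genes after normalization, against 29.4% of all called symbols, and for 8 of 13 with median centring, against 22.6%. Of the 18 called Wnt pathway genes, 5 were highest on replicate 2 after normalization (27.8%), against the same 29.4%. The part of the visceral endoderm markers in these differences was not tested.

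Some differences between arrays are given here for genes picked for their size, with the error over beads, which covers the measurement within an array and not the spread between samples. For *Axin2*, measured by 1 probe, the deposited log2 signal was 0.70 higher on replicate 1 than on replicate 2, with a standard error over beads of 0.13, where the median over all called symbols was 0.17. *Wnt3a* differed by 0.65 between the same arrays (standard error over beads 0.15). *Wnt5b* was 0.89 higher on replicate 1 than on replicate 3 (standard error over beads 0.10), where the median over called symbols was 0.47. For *Fzd2* replicate 1 minus replicate 3 was 0.26 in the deposited signals, under that median, and -0.44 after normalization, where its SD of 0.23 over the arrays exceeded that of 66.9% of called symbols. The SD over the 3 normalized arrays had a median of 0.26 over the 18 called genes and 0.17 over all called symbols, but this order turned with the deposited signals, at 0.22 and 0.25.

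**Figure D5:**
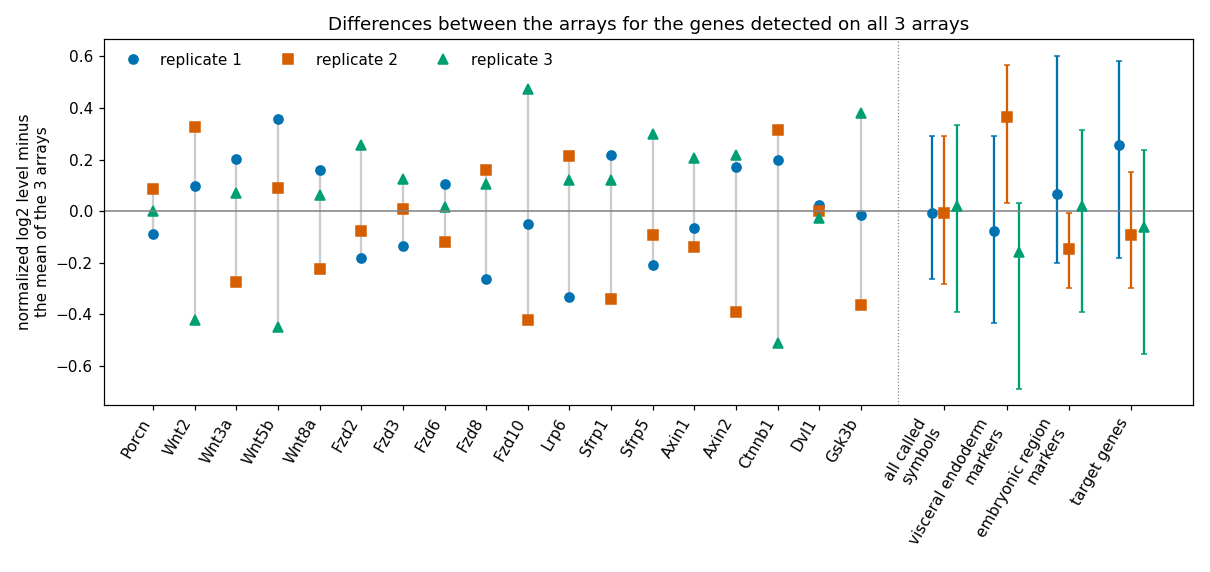
Normalized log2 level of each called gene on each array minus its mean over the 3 arrays (y axis), with the median and the 5th to 95th percentile over genes for all called symbols and for the called genes of 3 lists at the right. *Ctnnb1*, *Wnt5b*, and *Wnt2* are lowest on replicate 3, and *Axin2*, *Sfrp1*, and *Fzd10* on replicate 2. The visceral endoderm markers have a median of 0.37 on replicate 2 and -0.16 on replicate 3, and their part was not tested.

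Promoter windows from RefSeq (250 bases before to 50 after a gene's start, GRCm38.p6) were available for 33 of the 50 genes. They were searched on both strands for CTTTG followed by AA, by AT, by TA, or by TT, the letters that Tcf and Lef factors are known to prefer. A match was found in 6 of the 33 genes (18.2%), against 18.9% of 27025 genes with a window, and in 1 of 9 called genes with a window, a share near that of all genes. Windows with a match are shown for the called gene *Wnt5b*, for *Fzd7*, bright without a call, and for *Dkk1*, near background, with the matches in capitals. The window of *Wnt5b* belongs to 1 of its 3 starts and lies at chr6:119449337-119449636, minus strand, that of *Fzd7* at chr1:59481897-59482196, plus strand, and that of *Dkk1* at chr19:30549447-30549746, minus strand, each written 5′ to 3′ on the gene's strand.
Wnt5b: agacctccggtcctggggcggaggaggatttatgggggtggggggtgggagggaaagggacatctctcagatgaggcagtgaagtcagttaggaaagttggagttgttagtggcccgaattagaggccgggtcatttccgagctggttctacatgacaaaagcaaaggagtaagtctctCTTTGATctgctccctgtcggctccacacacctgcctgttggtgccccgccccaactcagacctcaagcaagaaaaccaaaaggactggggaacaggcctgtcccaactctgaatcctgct
Fzd7: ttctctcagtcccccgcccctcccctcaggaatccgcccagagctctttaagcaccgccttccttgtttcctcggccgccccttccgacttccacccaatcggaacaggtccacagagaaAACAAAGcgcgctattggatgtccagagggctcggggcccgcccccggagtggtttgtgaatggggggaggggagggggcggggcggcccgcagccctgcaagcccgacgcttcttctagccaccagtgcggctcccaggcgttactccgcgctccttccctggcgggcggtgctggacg
Dkk1: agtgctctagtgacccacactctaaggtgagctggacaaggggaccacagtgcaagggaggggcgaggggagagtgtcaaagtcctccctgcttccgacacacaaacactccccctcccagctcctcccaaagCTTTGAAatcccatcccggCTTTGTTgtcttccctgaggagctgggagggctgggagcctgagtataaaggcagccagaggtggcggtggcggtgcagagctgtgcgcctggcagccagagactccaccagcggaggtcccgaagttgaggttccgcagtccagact

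The match of *Wnt5b* starts 71 bases before the gene's start, that of *Fzd7* 130 bases before, and those of *Dkk1* 117 and 98 bases before. These windows were chosen for printing because they hold a match. A match describes letters only, and no binding was measured.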

How the data were processed

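Embryonic regions were measured on 3 Illumina Mouse-6 arrays, grouped by the replicate number of the sample labels. The authors deposited a log2 signal, averaged per gene symbol and not normalized between arrays, with a mean number of beads per symbol and a detection p-value, and the standard error over beads was deposited as a linear intensity. Partek is named in the submitters' processing notes, and background subtraction is not given in the sources used here. No column was left without a sample.

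Probes per symbol were inferred as the smallest number making all bead means whole. A single probe also needed detection p-values in steps of 1 in 936 (tolerance 0.002), which left 21986 symbols of 1 probe, 8190 of several, and 678 not settled. Bead numbers alone, the rule run first, gave 22662 symbols of 1 probe and background levels that were lower in the deposited signals. It was replaced after its results were seen to differ from an earlier report of these data, and it is kept as an alternative. Signals were corrected with normexp (offset 16) and quantile normalized, and levels relative to background were tested with limma (lmFit, eBayes, one-sided, Benjamini-Hochberg over 30854 symbols, threshold 0.05). The fit gave every symbol the same standard error, 0.15, so the SD over arrays is printed and the adjusted p-values take that error as given. The number of arrays limits the precision.

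Called genes were named with values, genes called on 1 or 2 arrays with their detection p-values, and the other genes by symbol. Of the other pathway genes, all called were named and the 3 with the highest level in a list, called or not, were given values. The genes and lists were chosen with earlier results of these data known. The alternatives tried are described in the closing section. R 4.3.3, limma 3.58.1, Python 3.11.15, numpy 2.4.6, pandas 2.3.3, and matplotlib 3.10.9 were used.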

Additional observations from a re-analysis of the deposited data

How the results depend on the processing

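The count of 18 called Wnt pathway genes became 11 with a detection p under 0.001, which is a stricter threshold and left out *Wnt2*, *Fzd6*, *Fzd8*, *Lrp6*, *Sfrp5*, *Axin1*, and *Dvl1*. It was 9 when the 25 genes with 1 probe were taken alone, a setting chosen after seeing the data, and 24 of 50 instead of 39 of 90 for the other pathway genes, because fewer genes enter. In 20.8% of all symbols with 1 probe the rule gave a call. Over the other alternatives the count ranged from 18 to 27, the highest with detection on at least 1 array and with signals above the background level of the rule run first, and without a replicate from 18 to 21. The other pathway genes numbered 39 without replicate 2 (21.6% of all symbols) to 45 without replicate 3 (24.1%). The limma test called 17 to 20 of the 50 genes over the alternatives listed at the outset. With symbols of 1 probe found from bead numbers alone, the rule run first and replaced after its results were seen, limma called 21 genes (27.5% of all symbols), adding *Fzd8* (level 0.10, adjusted p 0.0319) and *Sfrp2*, and levels were lower, as for *Wnt5b* (0.86 instead of 1.70) and *Fzd3* (0.39 instead of 1.02). Under it the level of *Fzd6* turned from -0.045 to 0.052, and leaving out a replicate gave -0.15 to 0.062. The cause was not tested. *Wnt2* lost the limma call in 3 of 11 alternatives and *Lrp6* in 5, and the other levels that limma called kept the call in each alternative that tested them. No paired analysis was possible because all arrays belong to 1 group. Signal over background limits the calls of *Fzd6*, *Fzd8*, *Sfrp5*, *Sfrp2*, and *Dkk4*, whose signals lie close to it.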

Other observations

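*Wls*, the carrier that takes Wnt proteins to the cell surface, is listed under 2 older symbols and was left out of the counts. As *Gpr177* its log2 signal was 7.95, 8.05, and 7.74, in the order of the replicates, and as *5031439A09Rik* 8.52, 8.45, and 7.97, each called on all 3 arrays. The symbol *Tcf3*, which can stand for *Tcf7l1* or for another gene, was left out as well and had signals of 10.27, 9.90, and 9.71.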
